A study of Mus musculus with 35 samples.

Results

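Livers of mice given the carcinogen diethylnitrosamine (DEN) were compared between day 133 and day 260 after birth, where the later mice had been injected in the meantime with an antisense oligonucleotide (ASO) against Smyd3. The comparison holds 10 of the 21 mice of the series, chosen by the names of their columns of counts: 4 DEN mice harvested at day 133, called P133 here, and 6 Smyd3-ASO mice harvested at day 260. All 10 were C57Bl6 mice given a single intraperitoneal dose of 25 mg/kg DEN on day 14. The Smyd3-ASO mice then received the oligonucleotide intraperitoneally at 50 mg/kg, 2 times a week from day 133 to day 260, and the P133 mice received none. The labels name the tissue of both groups as liver, DEN-induced tumours and hepatocellular carcinoma, and give no count or size of tumours. Liver pieces were used for the RNA, so fewer cells of a type and less RNA per cell cannot be told apart. Untreated mice at day 133 and DEN mice at day 260 without an oligonucleotide were not analysed here, so age, tumour growth and repeated injection cannot be told apart in this comparison. The other groups at day 260, 6 DEN mice with a control ASO at the same dose and 5 untreated mice, serve here only for reference.

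DEN is a carcinogen that hepatocytes activate with their own cytochrome P450 enzymes, and a dose given to young mice leaves mutated hepatocytes that grow out over months, often with an active Ras-MAPK pathway. That pathway ends in immediate early genes, a set of transcription factors and feedback regulators that are transcribed within minutes of a growth signal or stress and decay as fast. Dedifferentiating hepatocytes lose the network of nuclear factors that keeps their metabolic genes on, and can regain fetal genes such as Afp. Smyd3 is a lysine methyltransferase that methylates both histone and non-histone proteins.

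Libraries were made to read the 3' ends of polyadenylated RNA, and levels are given as CPM, a gene's share of all counts of a mouse scaled for composition. Total counts were 4556484 to 6447397 in P133 mice and 6358080 to 20258619 in Smyd3-ASO mice. Of all counts, 17.4 to 19.1% in P133 mice and 9.46 to 15.7% in Smyd3-ASO mice came from the 10 most abundant genes. Each P133 mouse and Smyd3-ASO mouse 6 had 1 library. The counts of Smyd3-ASO mice 1 to 5 are marked as merged in the header of the deposited table. Per the sample titles, these mice had 2 or 3 libraries each. Library number is thereby tied to the groups, and mouse 6 is the only Smyd3-ASO mouse with 1 library, like the P133 mice. Hepatocyte transcripts were abundant in all 10 mice, with Alb (albumin) at 25706 to 30978 CPM in P133 and 13200 to 29255 CPM in Smyd3-ASO mice. The labels do not give the hour of harvest, and clock genes differed between the groups (values further on).

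Smyd3 was the first gene checked (mm10, chr1:178951960-179518041). It stood at 5.47, 4.57, 2.66 and 4.26 CPM in P133 mice 1 to 4, and at 0 to 0.757 CPM with a median of 0.245 CPM in Smyd3-ASO mice, where mouse 3 had 0 counts. The groups did not overlap. Over all splits of the 10 mice the difference in mean log2(CPM + 0.5) was -2.56 (exact two-sided permutation test, p = 0.0048, the smallest that 210 splits allow), and the fitted log2 change was -3.78 ± 0.57 (SE), adjusted p = 0.001. Control-ASO mice held 3.11 to 4.62 CPM and untreated mice 2.36 to 5.08 CPM, both overlapping P133. Smyd3 was 1 of 6 genes to fall among 24 measured members of a list of the Smyd family and other lysine methyltransferases, in which none rose. Without P133 mouse 1 or 4 the falls were 2, and without P133 mouse 2 or Smyd3-ASO mouse 2 or 6 they were 3. The other five were Setd1a, Smyd2, Setd7, Setd1b and Nsd3. Smyd2, which belongs to the same Smyd family, stood at 12.2, 11.9, 11.5 and 10.7 CPM in P133 and 4.11 to 9.17 CPM in Smyd3-ASO mice (log2 change -0.80 ± 0.23 (SE), adjusted p = 0.024), without overlap. That call was lost without P133 mouse 1, 2 or 3 (adjusted p up to 0.062) and with library totals (-0.53). With scaling by library totals 1 member of the list fell, 3 rose and the median log2 change went from -0.24 to 0.05.

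**Figure D1:**
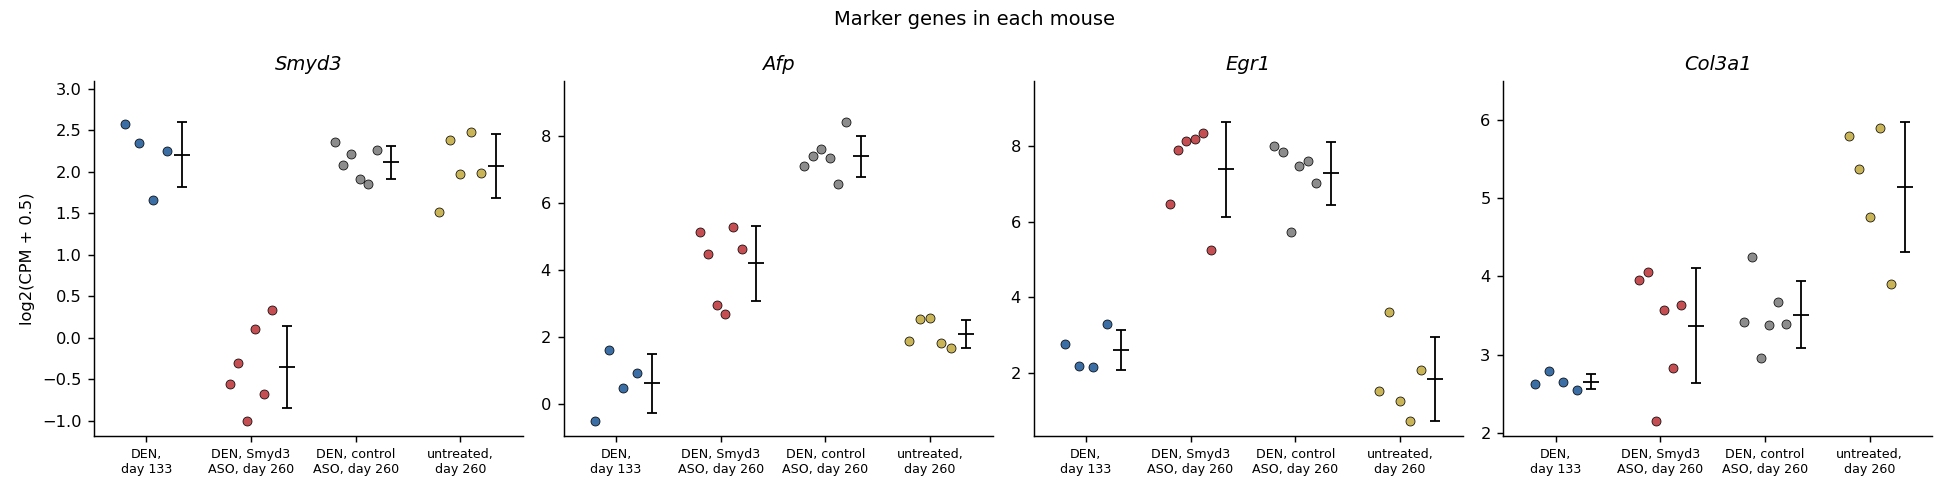
Level of 4 marker genes in each mouse as log2(CPM + 0.5), by group, with 1 point for each mouse and the mean ± SD as a bar beside the points. Smyd3 is low in the Smyd3-ASO mice alone, Afp and Egr1 are higher in them than in every day 133 mouse, and Col3a1 overlaps between the 2 groups.

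Across 15297 genes, 2011 were higher and 1783 lower in Smyd3-ASO than in P133 mice at an adjusted p under 0.05 in edgeR's quasi-likelihood test, 24.8% of all genes tested, and 11503 did not pass. The share of all genes that rose was 13.1% and the share that fell was 11.7%. These are the backgrounds for the gene groups below, and the median log2 change of all genes was 0.05. Scaling by library totals instead moved that median to 0.34 and the calls to 3369 higher and 736 lower, so that 82.1% rather than 53% of calls were rises. Changes are therefore given relative to the bulk of genes. The 2 groups did not overlap for 1498 genes on the higher side and 1450 on the lower side, 9.79% and 9.48% of those tested. In Smyd3-ASO mouse 6 alone, 1624 of the 2011 genes that rose lay above every P133 mouse, and 1548 of the 1783 that fell lay below every P133 mouse. The same share over all genes tested was not counted. Mouse 6 was part of the fit that called these genes, so its counts are no separate check on the number of libraries. Fitted against the P133 mice as a single mouse, it gave 451 rises and 550 falls. The calls also moved with single mice: without P133 mouse 1, 2 or 4 the rises were 1300, 1313 and 1333. The median size of mouse 6's change over the genes that rose was 0.74 on the log2 scale against 1.14 in all 6 mice. Where a gene is called 1 of the 12 largest rises or falls, this is among named genes that passed, reached a mean log2 CPM of 2 over the 10 mice and did not overlap between the groups, with pseudogenes left out.

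**Figure D2:**
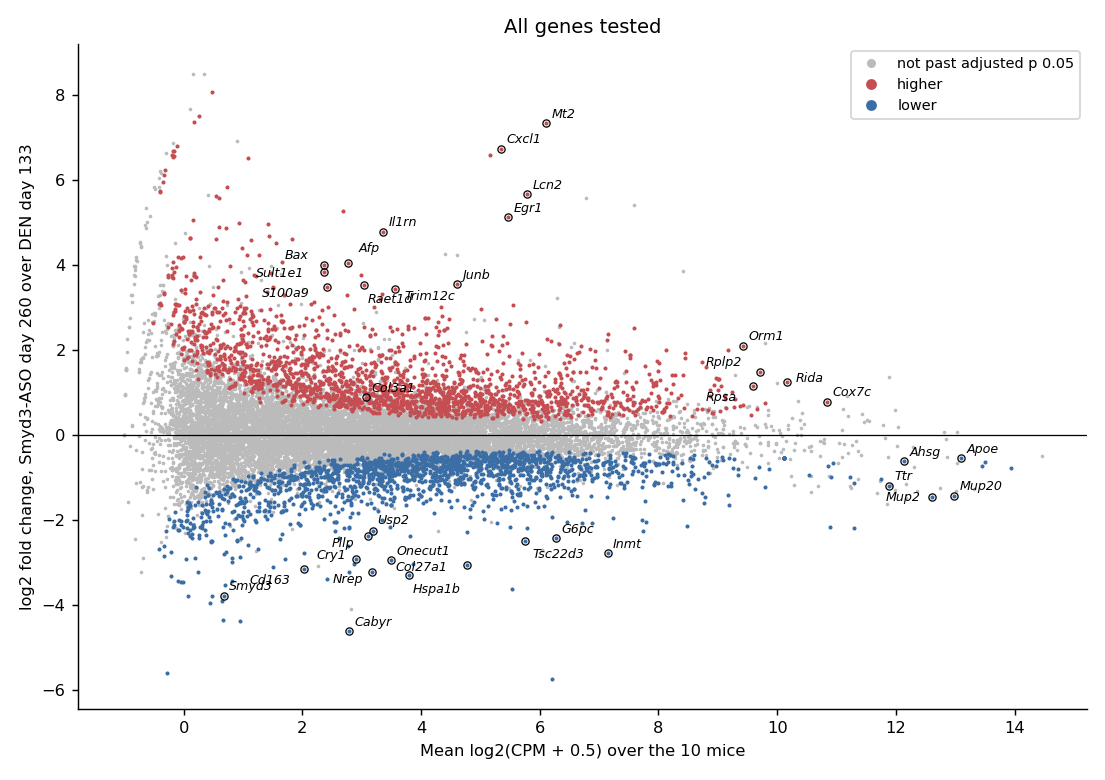
Log2 fold change of each gene, Smyd3-ASO at day 260 over DEN at day 133, against its mean log2(CPM + 0.5) over the 10 mice, with genes past an adjusted p of 0.05 in red (2011 higher) and blue (1783 lower). Circled genes are drawn from the markers, the 12 largest rises and 12 largest falls among named genes whose mean log2 CPM reached 2 and whose groups did not overlap, and the 6 most abundant called genes in each direction.

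Of 21 immediate early genes measured, 10 rose, 0 fell and 11 missed the threshold, with a median log2 change of 1.30 against 0.05 over all genes. The 10 were Egr1, Junb, Zfp36, Btg2, Klf6, Klf10, Fos, Jun, Egr2 and Ier2. Egr1, a zinc finger transcription factor (chr18:34859823-34864984), was at 6.31, 4.07, 3.99 and 9.31 CPM in P133 mice and at 37.6 to 324 with a median of 259 CPM in Smyd3-ASO mice. Every Smyd3-ASO mouse lay above every P133 mouse, with mice 1 and 6 lowest at 87.9 and 37.6 CPM (log2 change 5.13 ± 0.69 (SE), adjusted p = 0.0011). Junb, a subunit of the AP-1 transcription factor (chr8:84974484-84978718), was at 9.25, 5.08, 5.54 and 5.05 CPM in P133 and 10.5 to 150.2 with a median of 69.9 CPM in Smyd3-ASO mice (log2 change 3.55 ± 0.62 (SE), adjusted p = 0.0036). Smyd3-ASO mouse 6, at 10.5 CPM, lay next to P133 mouse 1, and taken alone it gave a log2 change of 0.76. Zfp36, a protein that speeds the decay of inflammatory mRNAs, went from 19.3, 29.8, 16 and 12.8 CPM to 29.3 to 159 with a median of 95.5 CPM (log2 change 2.16 ± 0.46 (SE), adjusted p = 0.0077), with mouse 6 inside the P133 range. Btg2, an antiproliferative gene also induced by p53, went from 5.68 to 11.5 CPM to 14.6 to 94.7 with a median of 34.1 CPM without overlap (log2 change 2.35 ± 0.51 (SE), adjusted p = 0.0092). Over the list, mouse 6 alone had a positive log2 change for 14 of 21 members, with a median of 0.51. Without P133 mouse 2 or 4 the rises were 6, and without Smyd3-ASO mouse 6 there was 1 fall. The summed level of the 21 genes was 119 to 132 CPM in P133 and 203 to 901 CPM in Smyd3-ASO mice, and 96 to 168 CPM in untreated mice. Immediate early genes are also known to respond to how a tissue is sampled, which the labels do not describe and which was not tested.

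Among the feedback regulators of Ras-MAPK signalling, 2 of 11 measured rose and none fell, 18.2% against 13.1% of all genes. Dusp6, the phosphatase that dephosphorylates ERK, was at 95.4, 46.3, 36.3 and 31.2 CPM in P133 mice and 81 to 218 with a median of 124 CPM in Smyd3-ASO mice (log2 change 1.41 ± 0.38 (SE), adjusted p = 0.022), and only P133 mouse 1 reached the Smyd3-ASO range. Spred2 had a log2 change of 0.98 ± 0.30 (SE), adjusted p = 0.033. Both calls were lost without P133 mouse 2, 3 or 4, and that of Spred2 also without Smyd3-ASO mouse 5 (adjusted p up to 0.062 for Dusp6 and 0.094 for Spred2). Without Smyd3-ASO mouse 6, 5 members of the list rose, as with library totals. Another member rose without P133 mouse 4, and 1 member fell without P133 mouse 1. Dusp5, another ERK phosphatase, was at 0.21 to 0.665 CPM and 0.575 to 2.36 CPM and missed the threshold (log2 change 1.61 ± 0.56 (SE), adjusted p = 0.051), which it passed with library totals (1.94). In control-ASO mice Dusp5 was at 3.02 to 15.8 CPM, and there the difference between the 2 ASO groups passed (log2 change, Smyd3-ASO over control ASO, -2.75 ± 0.42 (SE), adjusted p = 0.00053).

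The promoters of Zfp36 and of 3 genes described further on, Hspa1b, Ifit1 and Bst2, are shown because each holds the binding motif that names its group. Each run is the 200 bases before the RefSeq transcript start in GRCm38.p6, read 5′ to 3′ on the gene's strand, with motif matches in capitals. The motifs are the CArG box, bound by serum response factor, in Zfp36, the element GAANNTTC, bound by heat shock factors, in Hspa1b, and the interferon-stimulated response element GAAANNGAAA in Ifit1 and Bst2.
Zfp36 (chr7:28379229-28379428, minus strand): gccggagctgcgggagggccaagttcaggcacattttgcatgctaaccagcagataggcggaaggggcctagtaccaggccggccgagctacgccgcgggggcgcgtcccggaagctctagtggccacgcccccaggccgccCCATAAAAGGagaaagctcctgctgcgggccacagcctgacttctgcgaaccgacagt
Hspa1b (chr17:34959239-34959438, minus strand): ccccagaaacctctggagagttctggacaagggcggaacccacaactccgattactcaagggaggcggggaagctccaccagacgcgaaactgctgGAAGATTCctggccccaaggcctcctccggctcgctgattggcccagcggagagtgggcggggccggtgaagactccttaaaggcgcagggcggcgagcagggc
Ifit1 (chr19:34640689-34640888, plus strand): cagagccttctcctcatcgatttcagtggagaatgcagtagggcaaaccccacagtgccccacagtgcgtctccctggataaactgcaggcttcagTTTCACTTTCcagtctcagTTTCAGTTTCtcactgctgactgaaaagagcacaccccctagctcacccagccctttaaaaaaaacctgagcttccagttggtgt
Bst2 (chr8:71537473-71537672, minus strand): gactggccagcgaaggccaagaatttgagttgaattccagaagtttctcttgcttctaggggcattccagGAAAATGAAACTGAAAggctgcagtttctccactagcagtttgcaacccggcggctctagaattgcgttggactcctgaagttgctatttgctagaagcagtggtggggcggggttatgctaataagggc

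Both strands were searched, and the 2 matches in Bst2 overlap. A CArG box lay in such a window of 1.32% of 27025 genes, the heat shock element in 6.22% and the interferon element in 2.65%. Of the 7 immediate early genes that rose and have a window, 2 held a CArG box, Zfp36 and Egr2, against 3 of the 17 measured members of that list with a window. Egr1, Klf10 and Ier2 rose but have no window, so they were not searched. Bases further upstream were not searched in any gene. Of the 6 heat shock genes that fell, 3 held the heat shock element, against 6 of 11 measured members with a window. Of the 8 interferon-response genes that rose and have a window, 4 held the interferon element, against 10 of 21 measured members with a window. In the heat shock and interferon lists the genes that changed thus held their motif in about the same share as the list as a whole. A match describes the letters in the window only.

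Fetal and tumour-associated genes rose in part. Of 21 measured in a list of oncofetal and liver tumour markers, 6 rose, 1 fell and 14 missed the threshold, with a median log2 change of 2.00. The 6 were Spink1, Afp, Scd2, Sox4, Lcn2 and Ly6d, and the only 1 to fall was Ccn2. Without P133 mouse 2 or 4 the rises were 3, and without Smyd3-ASO mouse 3 they were 10. With library totals 10 rose and none fell. Afp, the fetal serum protein used as a marker of hepatocellular carcinoma (chr5:90490737-90508907), was at 0.21, 2.54, 0.886 and 1.42 CPM in P133 mice and 5.92 to 39 with a median of 23.1 CPM in Smyd3-ASO mice. The groups did not overlap, and Smyd3-ASO mice 3 and 4 were lowest at 7.35 and 5.92 CPM (log2 change 4.05 ± 0.75 (SE), adjusted p = 0.0044). Control-ASO mice held 94.1 to 341 CPM, and Afp was lower in Smyd3-ASO than in control-ASO mice (log2 change -3.05 ± 0.49 (SE), adjusted p = 0.00098). Untreated mice held 2.67 to 5.45 CPM of Afp, above every P133 mouse and below every Smyd3-ASO mouse. Spink1, a secreted trypsin inhibitor, was at 0.631, 0.169, 1.55 and 0.158 CPM and 1.77 to 4.86 with a median of 4.09 CPM without overlap (log2 change 2.68 ± 0.53 (SE), adjusted p = 0.004). Scd2, a fatty acid desaturase that is low in normal adult liver, rose from 2.03 to 5.52 CPM to 5.3 to 29 CPM with P133 mouse 4 inside the Smyd3-ASO range (log2 change 2.08 ± 0.51 (SE), adjusted p = 0.014). Gpc3, a cell-surface proteoglycan of fetal liver and hepatocellular carcinoma chosen after its values were seen, was at 1.05, 0, 0 and 1.42 CPM in P133 and 0.865 to 5.74 CPM in Smyd3-ASO mice and missed the threshold (log2 change 2.31 ± 0.84 (SE), adjusted p = 0.064), which it passed with library totals (2.63). In control-ASO mice Gpc3 reached 34 to 147 CPM, above every Smyd3-ASO mouse. Sox4, a progenitor transcription factor, had a log2 change of 1.51 ± 0.40 (SE), adjusted p = 0.016 that lost its call without P133 mouse 2 or 4 (adjusted p up to 0.057). Ccn2, a secreted YAP target, fell by 0.85 on the log2 scale (adjusted p = 0.027), a call lost without P133 mouse 1, 2 or 4 or Smyd3-ASO mouse 4 (adjusted p up to 0.082) and with library totals, where the change was -0.52.

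Cell cycle genes also rose in part. Of 30 measured members of the cell cycle and DNA replication list, 9 rose, 0 fell and 21 missed the threshold, with a median log2 change of 1.06. The share that rose was 30%, against 13.1% of all genes. On the higher side, 8 of the 30 did not overlap between the groups, against 9.79% of all genes. Ccnd1, the cyclin that drives entry into the cycle, was at 30.7, 29, 36.6 and 24.9 CPM in P133 mice and 44.4 to 174 with a median of 81.6 CPM in Smyd3-ASO mice, without overlap (log2 change 1.64 ± 0.37 (SE), adjusted p = 0.0095). Plk1, a mitotic kinase, was at 0.21, 0.508, 1.11 and 0.946 CPM and 1.68 to 9.11 with a median of 3.55 CPM, without overlap (log2 change 2.70 ± 0.60 (SE), adjusted p = 0.0077). Mcm4, a subunit of the replicative helicase, was at 2.2 to 4.73 CPM and 4.74 to 10.1 CPM (log2 change 1.22 ± 0.29 (SE), adjusted p = 0.01). Ccnb1, the mitotic cyclin, had 2 counts over the 4 P133 mice and 146 over the 6 Smyd3-ASO mice, a depth-scaled ratio of 14.6 (exact Poisson 95% interval 3.97 to 122). That interval, like the other Poisson intervals below, pools counts over mice and covers counting error only, not the spread between mice. The summed level of the list was 174 to 209 CPM in P133 and 187 to 356 CPM in Smyd3-ASO mice, and 356 to 557 CPM in untreated mice. Without Smyd3-ASO mouse 1 the list held 1 fall.

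Targets of p53 rose in part. Of 20 measured, 6 rose (30% against 13.1% of all genes), 2 fell (10% against 11.7%) and 12 missed the threshold. With library totals 9 rose and 1 fell. The apoptosis gene Bax (chr7:45461697-45466898) was at 0.42, 1.19, 1.33 and 0.789 CPM in P133 mice and at 1.64 to 23.7 with a median of 15.8 CPM in Smyd3-ASO mice (log2 change 4.01 ± 0.70 (SE), adjusted p = 0.0032). Smyd3-ASO mouse 6, at 1.64 CPM, lay just above P133 mouse 3, while mice 1 to 5 were at 12 CPM or more. Without mouse 6 the change was 4.23 (adjusted p = 2.8e-05), and with mouse 6 alone it was 0.81. Bax was at 6.91 to 10.3 CPM in control-ASO mice, also above every P133 mouse, and at 0.935 to 2.96 CPM in untreated mice. The control-ASO mice had 2 merged libraries each, and the untreated mice had 1, like mouse 6 and the P133 mice. The part of library number in the Bax values was not tested. Pmaip1, which encodes the apoptosis protein NOXA, was at 0.42, 0.339, 0.886 and 0.631 CPM and 1.25 to 4.34 with a median of 2.49 CPM, without overlap (log2 change 2.17 ± 0.48 (SE), adjusted p = 0.0071). Aen, an apoptosis-enhancing nuclease, rose from 4.57 to 7.57 CPM to 9.97 to 23 CPM (log2 change 1.16 ± 0.27 (SE), adjusted p = 0.0085). Control-ASO mice held 0.136 to 1.13 CPM of Pmaip1 and 3.75 to 6.13 CPM of Aen, and Smyd3-ASO over control ASO gave log2 changes of 2.31 ± 0.46 (SE), adjusted p = 0.0027 and 1.52 ± 0.22 (SE), adjusted p = 0.00035, in that order. The pair that fell was Plk3, a stress kinase, and Perp, a junction protein, both chosen after their values were seen, with log2 changes of -2.08 ± 0.48 (SE), adjusted p = 0.013 and -0.58 ± 0.16 (SE), adjusted p = 0.021. The call of Perp was lost without P133 mouse 1 or 2 (adjusted p up to 0.068) and with library totals, where the change was -0.28.

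**Figure D3:**
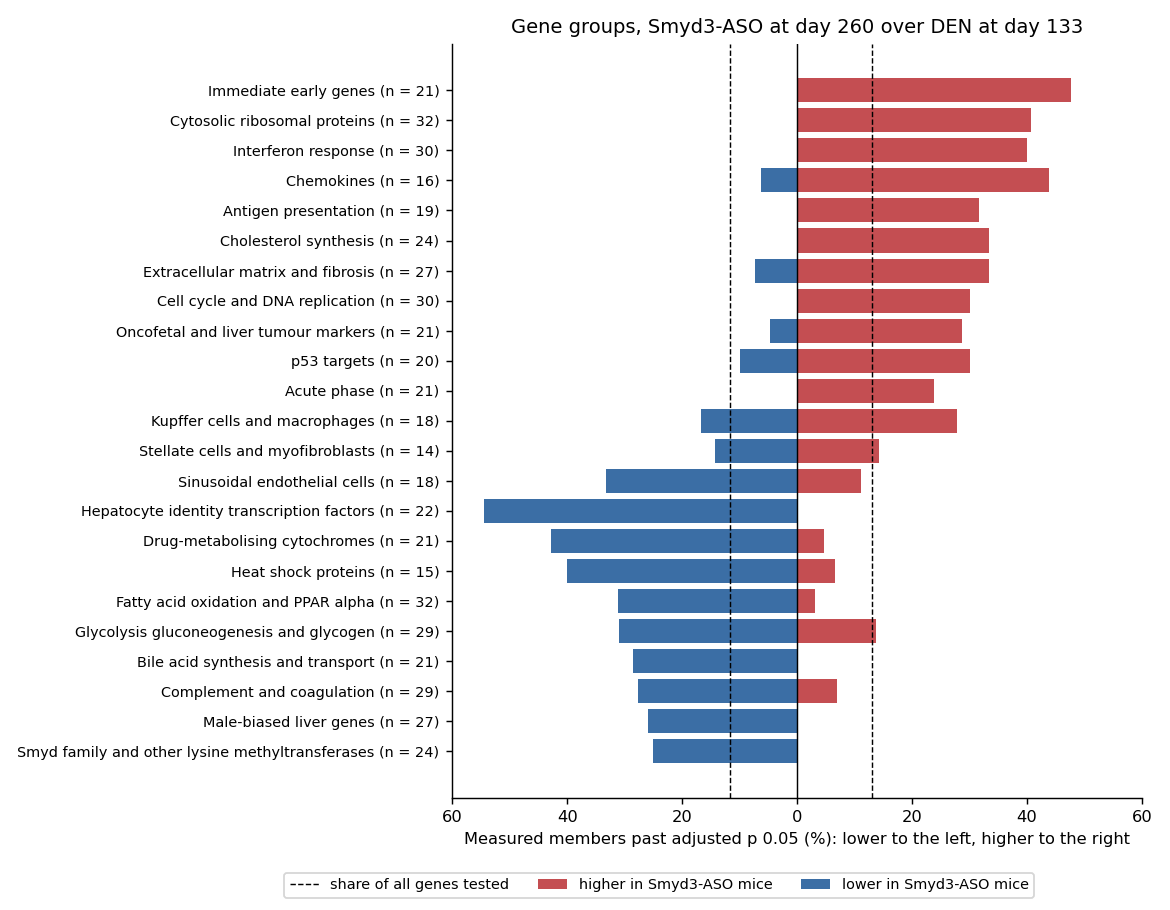
Share of the measured members that passed an adjusted p of 0.05 in 23 of the 46 gene lists, with rises to the right in red and falls to the left in blue. The 23 lists were picked by hand, and some lists nearer the shares of all genes, such as NRF2 targets and lymphocytes, are not shown. Dashed lines mark the shares over all genes tested, 13.1% higher and 11.7% lower, and n is the number of measured members.

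Of 22 measured transcription factors that define hepatocytes, 0 rose, 12 fell and 10 missed the threshold, a share of 54.5% fallen against 11.7% of all genes, with a median log2 change of -0.55. Among the 12 were Onecut1, Creb3l3, Nr1i3, Gata4, Foxa3, Nr1h4, Foxa1, Hnf4a, Ppara, Foxa2 and Cebpa. With library totals 3 fell and 2 rose, and the median was -0.28. Without P133 mouse 4 the falls were 4, without Smyd3-ASO mouse 2 they were 7, and without any other single mouse they were at most 11. Without Smyd3-ASO mouse 6, 2 members rose, and without mouse 5, 1 did. Onecut1, a homeobox factor of hepatocyte and bile duct development (chr9:74861921-74891781), was at 25.2, 35.1, 21.3 and 77.5 CPM in P133 mice and 1.86 to 9.59 with a median of 5.06 CPM in Smyd3-ASO mice. Every Smyd3-ASO mouse lay below every P133 mouse (log2 change -2.94 ± 0.44 (SE), adjusted p = 0.0015). Creb3l3, a membrane-bound factor that controls triglyceride and fasting genes, was at 162, 152, 168 and 161 CPM and 52.6 to 102 with a median of 89.9 CPM (log2 change -0.94 ± 0.17 (SE), adjusted p = 0.0026), and the P133 mice were nearly alike. Nr1i3, the xenobiotic receptor CAR, was at 41 to 81.6 CPM and 20.8 to 40.5 CPM, without overlap (log2 change -1.02 ± 0.22 (SE), adjusted p = 0.0063, and -0.70 with library totals, where it did not pass). Gata4, a factor of liver development, had a log2 change of -1.04 ± 0.24 (SE), adjusted p = 0.0093, and -0.74 with library totals, where it did not pass. Hnf4a, the central regulator of the hepatocyte programme and chosen after its values were seen, was at 142, 131, 110.3 and 136 CPM and 60.4 to 114 with a median of 84.1 CPM with an overlap at Smyd3-ASO mouse 3 (log2 change -0.60 ± 0.19 (SE), adjusted p = 0.034). Its call was lost with library totals and without P133 mouse 1, 2 or 4 or Smyd3-ASO mouse 1 or 2 (adjusted p up to 0.093).

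Of 21 measured cytochromes of the kind that metabolises drugs and carcinogens, 1 rose, 9 fell and 11 missed the threshold, with a median log2 change of -0.59, and 7 fell with library totals. Without P133 mouse 2 or 4 the falls were 5. Cyp2c29 was at 1254, 1243, 1230 and 1178 CPM in P133 mice, which were nearly alike, and at 184 to 614 with a median of 379 CPM in Smyd3-ASO mice (log2 change -1.66 ± 0.30 (SE), adjusted p = 0.0025). Cyp2d10 went from 433 to 547 CPM to 139.7 to 296 with a median of 205 CPM (log2 change -1.20 ± 0.20 (SE), adjusted p = 0.0015). Cyp2d26 went from 623 to 775 CPM to 376 to 491 with a median of 397 CPM (log2 change -0.73 ± 0.14 (SE), adjusted p = 0.0037, and -0.45 with library totals). Cyp2b10, a target of CAR, was at 13.2, 16.4, 20.6 and 15.9 CPM and 2.02 to 9.13 with a median of 5.12 CPM (log2 change -1.61 ± 0.32 (SE), adjusted p = 0.0041). In none of these 4 did the groups overlap. Cyp2d26 was at 643 to 917 CPM in control-ASO mice, and Smyd3-ASO over control ASO gave a log2 change of -0.94 ± 0.14 (SE), adjusted p = 0.00041. Cyp2b10 was at 0 to 1.76 CPM in control-ASO mice, lower than in Smyd3-ASO mice (log2 change, Smyd3-ASO over control ASO, 3.60 ± 0.62 (SE), adjusted p = 0.0012). The member that rose, Cyp2a12, named after its values were seen, had a log2 change of 0.55 ± 0.19 (SE), adjusted p = 0.046 that lost its call on leaving out any 1 of 8 mice (adjusted p up to 0.12).

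Genes biased to male liver also fell where they changed. Of 27 measured, 0 rose, 7 fell and 20 missed the threshold, with a median log2 change of -0.94, and 6 fell with library totals. Without P133 mouse 1 the falls were 4, and without Smyd3-ASO mouse 5 they were 14. Cyp2d9, a steroid hydroxylase, was at 1086, 967, 1152 and 1151 CPM and 197 to 640.5 with a median of 399.7 CPM, without overlap (log2 change -1.42 ± 0.27 (SE), adjusted p = 0.0033). Cyp4a12a, an arachidonic acid hydroxylase, was at 532 to 661 CPM and 166 to 482 CPM, without overlap (log2 change -1.14 ± 0.26 (SE), adjusted p = 0.0082). Mup20 and Mup2, urinary pheromone-binding proteins and among the most abundant liver transcripts, gave log2 changes of -1.43 ± 0.42 (SE), adjusted p = 0.028 and -1.47 ± 0.42 (SE), adjusted p = 0.025. The Mup genes are near-identical copies, so reads may be split among them, and both calls were lost when single mice were left out (adjusted p up to 0.11 for Mup20 without P133 mouse 3, and 0.064 for Mup2 without P133 mouse 1), that of Mup20 also with library totals. Of 21 genes biased to female liver, 2 rose and 2 fell, 9.52% each, below the shares of all genes. The rises were 4 without Smyd3-ASO mouse 3 and 1 without P133 mouse 1, 3 or 4, and the falls were 1 without P133 mouse 4 or Smyd3-ASO mouse 1, as with library totals. Sult1e1, the oestrogen sulfotransferase, rose from 0.841, 2.03, 1.33 and 0.473 CPM to 2.62 to 32.3 with a median of 16.5 CPM. Its 6 Smyd3-ASO values split into mice 1, 2 and 6 at 27.4 CPM or more and mice 3, 4 and 5 at 5.62 CPM or less (log2 change 3.85 ± 1.03 (SE), adjusted p = 0.024). The call was lost without P133 mouse 1, 3 or 4 (adjusted p up to 0.066). Cyp2a4, a steroid hydroxylase, rose from 4.73 to 10.7 CPM to 6.72 to 64.7 CPM (log2 change 2.39 ± 0.58 (SE), adjusted p = 0.015), far below the 315 to 1155 CPM of control-ASO mice. Ghr, the growth hormone receptor, was at 299.5, 394, 339.8 and 429 CPM and 39 to 175 with a median of 105 CPM, without overlap (log2 change -1.95 ± 0.38 (SE), adjusted p = 0.005). Growth hormone sets much of this sex bias, and its signalling was not measured here.

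Most secreted products of hepatocytes did not pass. Of 25 measured, 1 rose (4% against 13.1% of all genes), 4 fell (16% against 11.7%) and 20 missed the threshold. The median log2 change of -0.22 turned to 0.03 with library totals, where 2 rose and 2 fell. Without P133 mouse 2 the falls were 2. Ttr, the carrier of thyroid hormone and retinol-binding protein, was at 6325, 5469, 6107 and 7138 CPM and 2218 to 3320 with a median of 2711 CPM, without overlap (log2 change -1.19 ± 0.18 (SE), adjusted p = 0.001). Rbp4, the retinol carrier, went from 2480 to 2567 CPM to 1155 to 1865 CPM, without overlap (log2 change -0.74 ± 0.17 (SE), adjusted p = 0.0083, and -0.46 with library totals, where it did not pass). Apoa1, the main protein of high-density lipoprotein, had a log2 change of -1.13 ± 0.30 (SE), adjusted p = 0.016, with an adjusted p of 0.055 without P133 mouse 2. Alb, at the levels given above, did not pass (log2 change -0.49 ± 0.24 (SE), adjusted p = 0.15, and -0.23 with library totals). Ahsg, the fourth to fall, and Apoe, a lipoprotein gene that is among the most abundant of all that fell, had log2 changes of -0.62 ± 0.20 (SE), adjusted p = 0.039 and -0.54 ± 0.17 (SE), adjusted p = 0.034. Their calls were lost with library totals and without any 1 of the P133 mice (adjusted p up to 0.11 for Ahsg and 0.1 for Apoe). The only 1 to rise was Apob, the structural protein of very low-density lipoprotein, at 23.3, 19.3, 18.4 and 21.1 CPM in P133 and 23.7 to 224 with a median of 145 CPM in Smyd3-ASO mice (log2 change 2.65 ± 0.56 (SE), adjusted p = 0.0085). Mouse 6, at 23.7 CPM, lay beside P133 mouse 1, and alone gave a log2 change of 0.21. Of 29 genes of complement and coagulation, 8 fell and 2 rose, 27.6% and 6.9%, and with library totals 5 fell and 7 rose. The rises, F11 and Mbl2, were 1 without P133 mouse 2 or 3.

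Genes of fat use and storage were mostly lower where they changed, though not with library totals. Of 32 genes of fatty acid oxidation and PPAR alpha, 1 rose, 10 fell and 21 missed the threshold. These shares were 3.12% higher and 31.2% lower, against 13.1% and 11.7% of all genes. The median log2 change of -0.21 turned to 0.11 with library totals, where 3 fell and 4 rose. Without P133 mouse 3 the falls were 6 and without mouse 4 they were 5. The 1 that rose, Acaa1a, a peroxisomal thiolase chosen after its values were seen, had a log2 change of 0.82 ± 0.27 (SE), adjusted p = 0.041, a call lost on leaving out any 1 of 7 mice (adjusted p up to 0.11). Acaa2, the last enzyme of the mitochondrial cycle, was at 619, 618, 580.2 and 573 CPM and 344 to 421 with a median of 389 CPM, without overlap (log2 change -0.64 ± 0.13 (SE), adjusted p = 0.0046). Cpt2, which carries long-chain acyl groups into the mitochondrion, had a log2 change of -0.63 ± 0.14 (SE), adjusted p = 0.0075, and both Acaa2 and Cpt2 missed the threshold with library totals (-0.35 and -0.33). Angptl4, an inhibitor of lipoprotein lipase induced by fasting, went from 79.8 to 130.3 CPM to 34.8 to 61.4 CPM, without overlap (log2 change -0.93 ± 0.19 (SE), adjusted p = 0.0048). Of 22 measured genes of fatty acid synthesis, 2 rose, 4 fell and 16 missed the threshold, 9.09% higher and 18.2% lower. Their median log2 change of -0.31 turned to 0.01 with library totals, where 5 rose and 3 fell. The 2 that rose, named after their values were seen, were the desaturase Scd2 and the elongase Elovl6; 1 rose without P133 mouse 1, 2 or 3, and 4 without Smyd3-ASO mouse 3. Dgat2, which makes triglyceride, was at 488, 532, 541 and 558 CPM in P133 mice and 84.5 to 203 with a median of 117 CPM in Smyd3-ASO mice, without overlap (log2 change -2.05 ± 0.21 (SE), adjusted p = 0.00012). In control-ASO mice Dgat2 was at 255 to 485 CPM, and Smyd3-ASO over control ASO gave a log2 change of -1.57 ± 0.21 (SE), adjusted p = 0.00022. Thrsp, a lipogenic factor, went from 358 to 1052 CPM to 59.5 to 231 with a median of 121 CPM, without overlap (log2 change -2.25 ± 0.46 (SE), adjusted p = 0.0067).

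In the list of glycolysis, gluconeogenesis and glycogen, of 29 measured, 4 rose, 9 fell and 16 missed the threshold, with a median log2 change of -0.24 that became 0.03 with library totals, where 4 fell and 5 rose. Without P133 mouse 1 or 2 the falls were 4, and without mouse 2 the rises were 2. G6pc, the phosphatase that releases glucose to the blood, was at 362, 285, 198 and 219 CPM and 4.16 to 96.2 with a median of 46.7 CPM, without overlap (log2 change -2.43 ± 0.66 (SE), adjusted p = 0.026). Its call was lost without P133 mouse 1 or 2 or Smyd3-ASO mouse 1 or 4 (adjusted p up to 0.061). Ppp1r3b, which targets a phosphatase to glycogen, went from 211 to 328 CPM to 22.5 to 128 with a median of 55.4 CPM (log2 change -2.08 ± 0.42 (SE), adjusted p = 0.0062). Gbe1, the glycogen branching enzyme, was at 164, 152, 136 and 147 CPM and 64.4 to 94.4 with a median of 76.1 CPM (log2 change -0.96 ± 0.14 (SE), adjusted p = 0.00088). Pklr, the pyruvate kinase of liver, fell by 1.24 on the log2 scale (adjusted p = 0.0059), while Pkm, the form of other tissues and of tumours, had a log2 change of 0.96 ± 0.27 (SE), adjusted p = 0.024, a call lost without P133 mouse 1, 2 or 4 (adjusted p up to 0.077). Hk2, a hexokinase that is scarce in normal liver, rose from 0.631, 0.508, 1.11 and 1.1 CPM to 1.51 to 3.68 CPM, without overlap (log2 change 1.48 ± 0.39 (SE), adjusted p = 0.016, adjusted p = 0.054 without P133 mouse 2). Eno1 and Pgk1, enzymes of lower glycolysis, rose by 0.70 (adjusted p = 0.0093) and 0.66 (adjusted p = 0.0096) on the log2 scale. The 4 genes that rose were named after their values were seen.

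Genes of cholesterol synthesis rose in part. Of 24 measured, 8 rose, 0 fell and 16 missed the threshold, 33.3% against 13.1% of all genes, with a median log2 change of 0.37, and 11 rose with library totals. Without Smyd3-ASO mouse 5 or 6, 2 members fell. Hmgcs1, which makes the precursor of mevalonate (chr13:119690379-119708260), was at 137, 129, 118 and 109 CPM in P133 mice and 381 to 749 with a median of 448 CPM in Smyd3-ASO mice (log2 change 2.00 ± 0.21 (SE), adjusted p = 0.00016). Cyp51, the lanosterol demethylase, was at 153, 118, 136 and 141 CPM and 277 to 395 with a median of 329.9 CPM (log2 change 1.29 ± 0.15 (SE), adjusted p = 0.00033). Ebp, a sterol isomerase, went from 166 to 219 CPM to 327 to 548 with a median of 427 CPM (log2 change 1.20 ± 0.18 (SE), adjusted p = 0.00099). Mvk, mevalonate kinase, went from 6.87 to 11.1 CPM to 15.6 to 22.1 with a median of 18 CPM (log2 change 1.19 ± 0.19 (SE), adjusted p = 0.0013). None of the 4 overlapped between the groups, mouse 6 included. Cyp51 and Ebp were at 75.3 to 207 and 149 to 272 CPM in control-ASO mice, with log2 changes of Smyd3-ASO over control ASO of 1.01 ± 0.21 (SE), adjusted p = 0.0038 and 1.04 ± 0.18 (SE), adjusted p = 0.0011, in that order.

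Of 21 genes of bile acid synthesis and transport, 0 rose, 6 fell and 15 missed the threshold, with a median log2 change of -0.36, and with library totals 3 fell and 1 rose. Without P133 mouse 4 the falls were 3. Slco1a4, an uptake transporter of the sinusoidal membrane, was at 209, 187, 197 and 263 CPM and 29.1 to 94.3 with a median of 48.9 CPM (log2 change -2.05 ± 0.29 (SE), adjusted p = 0.00077). Slco1a1, its male-biased neighbour, had a log2 change of -1.77 ± 0.40 (SE), adjusted p = 0.0094. Slc10a1, the sodium-dependent bile acid carrier, was at 109 to 123 CPM and 47.6 to 103 CPM (log2 change -0.74 ± 0.19 (SE), adjusted p = 0.016, and -0.49 with library totals). These 3 did not overlap between the groups. Nr1h4, the bile acid receptor FXR, had a log2 change of -0.70 ± 0.20 (SE), adjusted p = 0.026. Without P133 mouse 4, the highest of its group at 70.5 CPM, it did not pass (adjusted p = 0.11), nor without Smyd3-ASO mouse 2 or with library totals (-0.42). In the urea cycle and amino acid list, 6 of 32 fell and 1 rose, 18.8% and 3.12%, with a median log2 change of -0.11 that turned to 0.15 with library totals, where 2 fell and 5 rose. The falls were 3 without P133 mouse 1, 2 or 4 or Smyd3-ASO mouse 1, and none rose without any 1 of the P133 mice or Smyd3-ASO mouse 1, 3 or 4. Slc25a13, the aspartate-glutamate carrier citrin, was at 130.3, 145, 144 and 161 CPM and 73.2 to 102 with a median of 81.2 CPM (log2 change -0.81 ± 0.13 (SE), adjusted p = 0.0016, and -0.53 with library totals). Prodh, proline dehydrogenase, went from 30.8 to 50.1 CPM to 12.6 to 28 CPM (log2 change -1.16 ± 0.22 (SE), adjusted p = 0.0033). Inmt, an indole and thioether methyltransferase and 1 of the 12 largest falls, went from 371, 466, 480.3 and 528 CPM to 37.8 to 93.4 with a median of 67.2 CPM (log2 change -2.78 ± 0.24 (SE), adjusted p = 5.5e-05).

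Interferon-response genes rose in part. Of 30 measured, 12 rose, 0 fell and 18 missed the threshold, with a median log2 change of 0.96, and mouse 6 alone had a positive log2 change for 28 of them. Ifit1, a sensor of foreign RNA (chr19:34640871-34650009) whose promoter is printed above, was at 1.89, 1.19, 2.88 and 2.21 CPM in P133 mice and 5.08 to 22.7 with a median of 17.6 CPM in Smyd3-ASO mice, without overlap (log2 change 2.96 ± 0.42 (SE), adjusted p = 0.00085). Xaf1, a proapoptotic interferon target, went from 0.841, 1.02, 1.99 and 0.473 CPM to 3.23 to 8.68 with a median of 6.27 CPM, without overlap (log2 change 2.53 ± 0.41 (SE), adjusted p = 0.0014). Ifi44 went from 0.631 to 2.22 CPM to 3.89 to 11.7 with a median of 7.53 CPM (log2 change 2.05 ± 0.37 (SE), adjusted p = 0.0024). Trim12c, a member of the Trim5 family and 1 of the 12 largest rises, was at 2.94, 2.88, 1.77 and 3.15 CPM and 19.2 to 41.1 with a median of 28 CPM, without overlap (log2 change 3.43 ± 0.29 (SE), adjusted p = 5.5e-05). In control-ASO mice Trim12c was at 8.04 to 11.1 CPM (log2 change, Smyd3-ASO over control ASO, 1.60 ± 0.19 (SE), adjusted p = 9.1e-05). Bst2, the membrane protein tetherin, chosen after its values were seen, stands apart from these. It was at 63.9, 73, 43.4 and 63.7 CPM in P133 mice, 260.5 CPM or more in Smyd3-ASO mice 1 to 5, and 36.3 CPM in mouse 6, below every P133 mouse. Over all 6 mice the log2 change was 2.38 ± 0.56 (SE), adjusted p = 0.013, without mouse 6 it was 2.61 (adjusted p = 3.5e-05), and with mouse 6 alone it was -0.75.

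Of 19 measured genes of antigen presentation, 6 rose and none fell, and 3 rose without P133 mouse 1 or 3 or Smyd3-ASO mouse 1. Psmb8, a subunit of the immunoproteasome, was at 10.3, 11, 14.4 and 12.9 CPM and 18.9 to 25.4 with a median of 22.2 CPM, without overlap (log2 change 0.87 ± 0.16 (SE), adjusted p = 0.0025). Psmb10, another subunit, went from 15.6 to 18.1 CPM to 20.5 to 36.1 CPM, without overlap (log2 change 0.79 ± 0.17 (SE), adjusted p = 0.0054). H2-Q4, a class I gene with close copies among which reads may be split, had a log2 change of 1.30 ± 0.31 (SE), adjusted p = 0.011. Tap2, the peptide transporter, had a log2 change of 1.03 ± 0.31 (SE), adjusted p = 0.028, and mouse 6 was inside the P133 range at 13.6 CPM. Its call was lost without P133 mouse 1 or 3 or Smyd3-ASO mouse 1 (adjusted p up to 0.081). Raet1d, a stress ligand of the NKG2D receptor and 1 of the 12 largest rises, was at 3.99, 1.19, 2.22 and 1.1 CPM and 6.98 to 50.9 with a median of 19.9 CPM, without overlap (log2 change 3.53 ± 0.77 (SE), adjusted p = 0.0098). Its copies in the Raet1 family may share reads.

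Acute phase and chemokine genes spread widely among the Smyd3-ASO mice. Of 21 acute phase genes, 5 rose, 0 fell and 16 missed the threshold, and of 16 chemokines, 7 rose, 1 fell and 8 missed the threshold. Without Smyd3-ASO mouse 6, 9 acute phase genes rose, and without P133 mouse 1, 2, 3 or 4 the rises were 2, 0, 1 and 0. With library totals 8 acute phase genes rose. Without P133 mouse 1 or 2 or Smyd3-ASO mouse 2, 4 chemokines rose, and without Smyd3-ASO mouse 4, 2 fell. Mt2, a metallothionein that binds zinc (chr8:94172664-94173568), was at 7.15, 7.45, 8.42 and 15.5 CPM in P133 mice. In Smyd3-ASO mice 1 to 6 it was at 89, 89.6, 5722, 3434, 54.8 and 30.7 CPM. All lay above P133, and mice 3 and 4 were far above the other four (log2 change 7.34 ± 2.13 (SE), adjusted p = 0.036). Without mice 3 and 4 the change was 2.75 (adjusted p = 0.0018), and without mouse 3 alone it was 6.25 (adjusted p = 0.057). Without any 1 P133 mouse it did not pass (adjusted p up to 0.082). Lcn2, a siderophore-binding protein of the acute phase, was at 6.2 to 15.1 CPM in P133 and 59.4 to 2266 with a median of 93.9 CPM in Smyd3-ASO mice, highest in mouse 3 (log2 change 5.67 ± 1.48 (SE), adjusted p = 0.024, and 3.01 (adjusted p = 0.00015) without mice 3 and 4). Without any 1 P133 mouse its adjusted p was up to 0.062. Cxcl1, a neutrophil attractant, was at 3.57, 4.91, 5.98 and 3.79 CPM and 17.7 to 1951 with a median of 183 CPM, again highest in mouse 3 and lowest in mouse 6 (log2 change 6.73 ± 1.60 (SE), adjusted p = 0.017, and 4.53 (adjusted p = 0.021) without mice 3 and 4). Il1rn, the interleukin 1 receptor antagonist, went from 0.789 to 3.54 CPM to 5.55 to 188 with a median of 25.2 CPM (log2 change 4.78 ± 1.20 (SE), adjusted p = 0.02, adjusted p up to 0.057 without P133 mouse 1, 2 or 4). Orm1, an abundant plasma glycoprotein, had a log2 change of 2.1 ± 0.57 (SE), adjusted p = 0.024, with mouse 6 at 452 CPM inside the P133 range, and an adjusted p up to 0.066 without P133 mouse 2, 3 or 4. Ccl2, the monocyte attractant, went from 1.05, 0.339, 0.443 and 0.631 CPM to 1.68 to 10.3 with a median of 3.02 CPM, without overlap (log2 change 2.94 ± 0.72 (SE), adjusted p = 0.013). The 1 chemokine that fell, Cxcl13, a B cell attractant, went from 6.52, 2.54, 4.43 and 2.68 CPM to 0.12 to 1.06 with a median of 0.364 CPM, without overlap (log2 change -2.90 ± 0.50 (SE), adjusted p = 0.002). High levels of Mt2 and Lcn2 were also seen in the reference groups. Mt2 was at 62 to 678 CPM in control-ASO mice and 16.3 to 2999 CPM in untreated mice. Lcn2 was at 61.8 to 340 CPM and 10.7 to 3233 CPM, in that order. Untreated mouse 5, given neither DEN nor an oligonucleotide, was the highest of its group for both.

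Among neutrophil markers, 3 of 5 measured members rose (1 without P133 mouse 1 or 2), with a summed level of 7.62 to 14.8 CPM in P133 and 26.2 to 149 CPM in Smyd3-ASO mice. S100a9, a calcium-binding protein abundant in neutrophils, was highest in mouse 3 at 49.5 CPM against 0.339 to 2.22 CPM in P133 (log2 change 3.49 ± 0.90 (SE), adjusted p = 0.02, adjusted p up to 0.054 without P133 mouse 1 or 2). Its partner S100a8 had a log2 change of 3.14 ± 0.91 (SE), adjusted p = 0.031, with an adjusted p up to 0.079 without any 1 P133 mouse. Elane, neutrophil elastase, was at 8.83, 5.93, 10.4 and 5.84 CPM and 14.1 to 58.6 with a median of 48.9 CPM, without overlap (log2 change 2.47 ± 0.37 (SE), adjusted p = 0.0012). The defining neutrophil genes Ly6g, Ngp, Camp, Ltf, Mpo and Mmp8 were too low to be tested. The part of neutrophils in the acute phase and chemokine values was not tested.

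**Figure D4:**
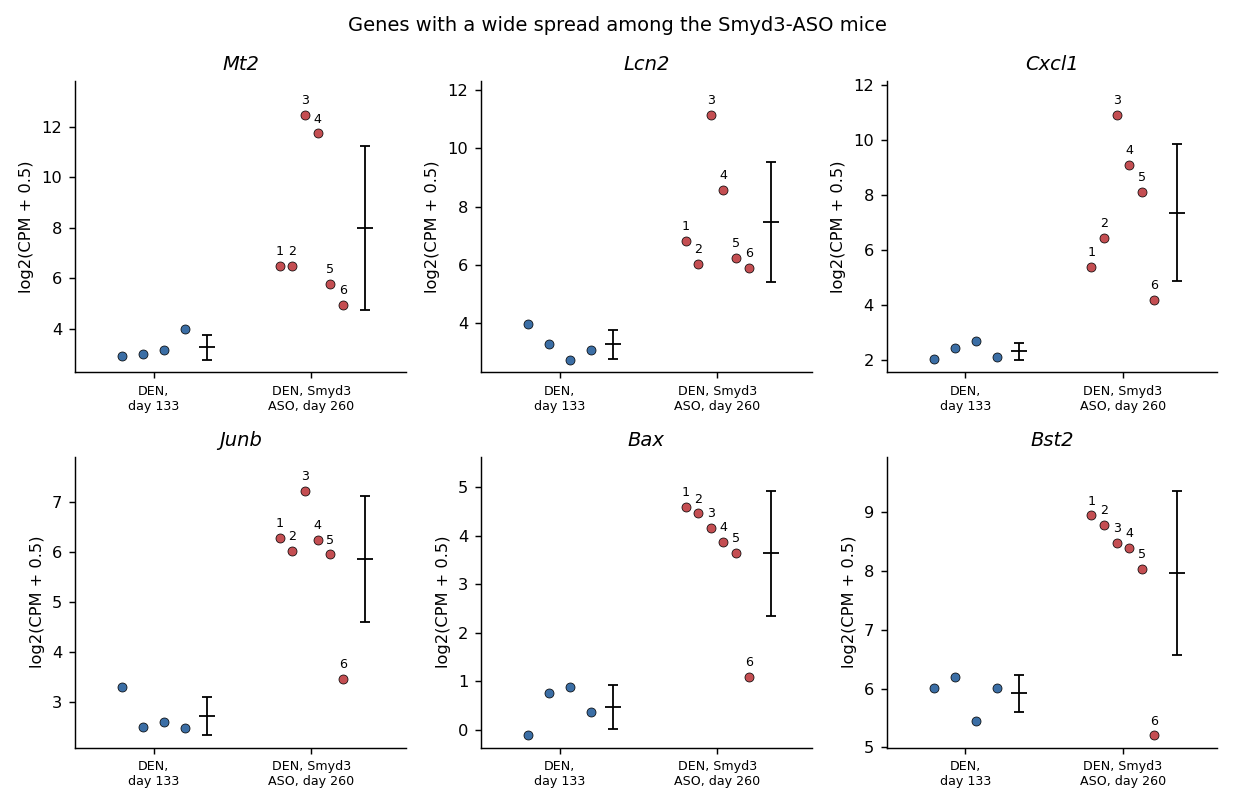
Level of 6 genes as log2(CPM + 0.5) in the 4 day 133 mice and the 6 Smyd3-ASO mice, which are numbered, with the mean ± SD beside each group. Mt2 and Lcn2 are highest in mice 3 and 4, and Junb, Bax and Bst2 in mouse 6 lie beside or below the day 133 mice.

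Of 18 measured genes of Kupffer cells and other macrophages, 5 rose, 3 fell and 10 missed the threshold. Those that fell were Vsig4, Clec4f and Csf1r. Vsig4, a complement receptor, was at 56.1, 60.3, 123 and 54.4 CPM and 12.3 to 43.8 with a median of 17.8 CPM (log2 change -1.78 ± 0.36 (SE), adjusted p = 0.0054), and Clec4f, a lectin of mouse Kupffer cells, went from 17.7 to 26.9 CPM to 5.71 to 17 CPM (log2 change -1.29 ± 0.28 (SE), adjusted p = 0.0059). Csf1r, the receptor on which macrophages depend, was at 32.2, 34.9, 36.8 and 25.9 CPM and 9.67 to 19.2 with a median of 16.4 CPM (log2 change -1.09 ± 0.20 (SE), adjusted p = 0.0025). Cd163, the haemoglobin scavenger receptor, which is outside the list and 1 of the 12 largest falls, went from 16.2, 17.3, 12 and 14.7 CPM to 0.126 to 3.71 with a median of 1.08 CPM (log2 change -3.16 ± 0.62 (SE), adjusted p = 0.0055). None of these 4 overlapped. Higher were Spp1, Gpnmb, C1qa, Mpeg1 and Ccr2. Spp1, the matrix protein osteopontin that macrophages and bile duct cells make, was at 8.83, 5.42, 4.43 and 6.63 CPM and 18.7 to 46.5 with a median of 26.1 CPM, without overlap (log2 change 2.18 ± 0.29 (SE), adjusted p = 0.00059). Gpnmb, a glycoprotein of lipid-laden macrophages, had 1 count over all P133 mice and 368 over the Smyd3-ASO mice, a depth-scaled ratio of 73.6 (exact Poisson 95% interval 13.1 to 2916, for counting error only). It lay at 1.87 to 5.47 CPM in the Smyd3-ASO mice and was at 0 in all untreated mice. C1qa, a complement subunit made by macrophages, was at 59.5, 62.9, 68.2 and 53.9 CPM and 69.3 to 243 with a median of 177 CPM (log2 change 1.49 ± 0.28 (SE), adjusted p = 0.0033). Smyd3-ASO mouse 6 held 69.3 CPM, just above P133 mouse 3, and alone gave a log2 change of 0.18. Vsig4 and Clec4f were chosen after their values were seen.

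Sinusoidal endothelial genes mostly fell where they changed. Of 18 measured, 2 rose, 6 fell and 10 missed the threshold, with the summed level at 348 to 408 CPM in P133 and 282 to 336 CPM in Smyd3-ASO mice, and 4 fell with library totals. Stab2, a scavenger receptor, was at 26.7, 33.5, 27.5 and 28.7 CPM and 14 to 21.3 with a median of 17.5 CPM (log2 change -0.74 ± 0.16 (SE), adjusted p = 0.0069, and -0.47 with library totals). Fcgr2b, the inhibitory Fc receptor of these cells, was at 28.2, 28.8, 19.9 and 22.9 CPM and 9.37 to 15.2 with a median of 11.1 CPM (log2 change -1.10 ± 0.18 (SE), adjusted p = 0.0015). Pecam1, the adhesion molecule CD31, went from 21.9 to 37 CPM to 6.99 to 21.6 CPM (log2 change -1.25 ± 0.26 (SE), adjusted p = 0.0054). Lyve1, the hyaluronan receptor, went the other way, from 4.41, 2.88, 3.1 and 3 CPM to 10.5 to 15.1 with a median of 13.4 CPM (log2 change 1.99 ± 0.20 (SE), adjusted p = 0.0001). None of the 4 overlapped between the groups. Stab2 and Fcgr2b were lower in Smyd3-ASO than in control-ASO mice as well (log2 changes -0.70 ± 0.15 (SE), adjusted p = 0.0038 and -0.85 ± 0.16 (SE), adjusted p = 0.0019), whereas Lyve1 gave a log2 change of 0.07 ± 0.25 (SE), adjusted p = 0.85 there.

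Extracellular matrix genes rose in part. Of 27 measured, 9 rose, 2 fell and 16 missed the threshold, with a median log2 change of 0.40, and with library totals 10 rose and none fell. No member fell without P133 mouse 1, and 1 did without P133 mouse 2 or 4 or Smyd3-ASO mouse 4. The summed level of the list went the other way, from 1010 to 1121 CPM in P133 to 661 to 1007 CPM in Smyd3-ASO mice, lower in every Smyd3-ASO mouse. Most of that sum was Fn1, fibronectin, which hepatocytes also secrete, at a mean of 704 ± 36.5 (SD, n = 4) CPM in P133 and 467 ± 178 (SD, n = 6) CPM in Smyd3-ASO mice (log2 change -0.60 ± 0.25 (SE), adjusted p = 0.10), named after its values were seen. Col3a1, a fibrillar collagen (chr1:45311538-45349706), was at 5.68, 6.44, 5.76 and 5.36 CPM in P133 mice and 3.94 to 16.2 with a median of 11.6 CPM in Smyd3-ASO mice. Mouse 3, at 3.94 CPM, lay below every P133 mouse and the other five above, and the change missed the threshold (log2 change 0.89 ± 0.35 (SE), adjusted p = 0.079), which it passed with library totals (1.24). Basement membrane collagens passed. Col4a1 was at 12.8, 11.7, 9.75 and 10.9 CPM and 15.2 to 23.3 with a median of 19.6 CPM (log2 change 0.79 ± 0.16 (SE), adjusted p = 0.0049), and Col4a2 at 2.1, 5.93, 3.99 and 3.94 CPM and 7.79 to 13.8 with a median of 10.7 CPM (log2 change 1.43 ± 0.27 (SE), adjusted p = 0.003), both without overlap. Untreated mice held 14.4 to 59 CPM of Col3a1, 19.3 to 33.2 CPM of Col4a1 and 14.2 to 24.2 CPM of Col4a2, all above every P133 mouse. For Col4a2 they also lay above every Smyd3-ASO mouse, and for Col3a1 and Col4a1 they overlapped the Smyd3-ASO mice. Mmp14, a membrane metalloproteinase, had a log2 change of 1.10 ± 0.26 (SE), adjusted p = 0.0099. The matrix genes that fell were Ccn2 and Dcn, decorin, both named after their values were seen. Dcn went from 112 to 129.7 CPM to 73.4 to 99.1 CPM (log2 change -0.51 ± 0.13 (SE), adjusted p = 0.014, and -0.22 with library totals, where it did not pass, as without P133 mouse 1, adjusted p = 0.052). Col27a1, a cartilage-type collagen outside the list and 1 of the 12 largest falls, went from 113, 75.1, 116 and 96.7 CPM to 7.6 to 20 with a median of 10.3 CPM, without overlap (log2 change -3.07 ± 0.29 (SE), adjusted p = 9.6e-05). Control-ASO mice held 10 to 33.8 CPM of Col27a1 and untreated mice 6.81 to 30.7 CPM, all below every P133 mouse. Among 14 stellate cell and myofibroblast markers 2 rose and 2 fell, 14.3% each, near the shares of all genes. Rgs5 and Pdgfrb, genes of pericytes, rose by 1.05 (adjusted p = 0.0058) and 1.20 (adjusted p = 0.0096) on the log2 scale. Colec10 and Colec11, collectins, fell by 1.02 (adjusted p = 0.0036) and 0.53 (adjusted p = 0.015) on the log2 scale, and Colec11 missed the threshold with library totals (-0.24).

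Of 6 measured erythroid genes, whose transcripts come with blood in the tissue, 3 fell (1 without P133 mouse 1) and none rose, and the summed level was 1639 to 2303 CPM in P133 and 622 to 1611 CPM in Smyd3-ASO mice. Hbb-bs, a beta globin, was at 591, 392, 484 and 473 CPM and 138 to 331 with a median of 221 CPM, without overlap (log2 change -1.13 ± 0.23 (SE), adjusted p = 0.0048). Globin genes have close copies that may share reads.

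Of 32 measured proteins of the cytosolic ribosome, 13 rose, 0 fell and 19 missed the threshold, 40.6% against 13.1% of all genes, and 22 rose with library totals. Rplp1, Rplp2 and Rplp0 form the stalk of the large subunit. Rplp1 was at 227, 206, 247 and 165 CPM in P133 mice and 549 to 1154 with a median of 634 CPM in Smyd3-ASO mice (log2 change 1.73 ± 0.23 (SE), adjusted p = 0.0006). Rplp2 was at 491, 406, 491 and 433 CPM and 814 to 1652 with a median of 1344 CPM (log2 change 1.49 ± 0.21 (SE), adjusted p = 0.00067), and Rplp0 at 155, 154, 168 and 121 CPM and 273 to 459 with a median of 353 CPM (log2 change 1.25 ± 0.18 (SE), adjusted p = 0.00072). Rpl13 had a log2 change of 1.17 ± 0.17 (SE), adjusted p = 0.00085, and Rpsa, another of the most abundant genes that rose, of 1.14 ± 0.25 (SE), adjusted p = 0.0061. In none of these 5 did the groups overlap, mouse 6 included. Ribosomal protein genes have many processed copies in the genome, which can share reads. Of 191 small nucleolar RNA genes tested, 75 rose and 16 fell, 39.3% on the higher side. Of the 75, 46 lie inside a tested protein-coding gene on the same strand, and for 32 of them the host also rose, so their reads cannot be told apart from those of the host. Cox7c and Rida, a respiratory chain subunit and a deaminase of reactive enamines, were among the 6 most abundant genes to rise (log2 changes 0.79 ± 0.18 (SE), adjusted p = 0.008 and 1.26 ± 0.25 (SE), adjusted p = 0.0043), and taken alone mouse 6 gave log2 changes of 0.31 and 0.37.

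Of 15 measured heat shock genes, 1 rose, 6 fell and 8 missed the threshold, and with library totals 2 fell and 2 rose. Hspa1b (chr17:34956436-34959238), whose promoter is printed above, was at 102, 39.5, 37.2 and 45 CPM in P133 mice and 2.21 to 8.83 with a median of 6.11 CPM in Smyd3-ASO mice, without overlap (log2 change -3.29 ± 0.39 (SE), adjusted p = 0.00051). Hspa1a was at 19.3, 6.1, 3.32 and 9.78 CPM and 0.221 to 2.48 with a median of 0.814 CPM, without overlap (log2 change -3.11 ± 0.66 (SE), adjusted p = 0.0075). The pair are near-identical copies, so their reads may be split. Control-ASO mice spanned 4.29 to 212 CPM of Hspa1b. All of them but mouse 1, at 212 CPM, held 19.5 CPM or less, below every P133 mouse. Untreated mice held 4.36 to 23 CPM of Hspa1b, also below every P133 mouse. Dnajb4, a co-chaperone, had a log2 change of -0.96 ± 0.20 (SE), adjusted p = 0.0054, and -0.63 with library totals, where it did not pass. The only member to rise was Hspe1, the mitochondrial co-chaperonin, from 198, 159, 183 and 166 CPM to 236 to 612 with a median of 514 CPM, without overlap (log2 change 1.42 ± 0.24 (SE), adjusted p = 0.0018). In control-ASO mice Hspe1 was at 126 to 192 CPM (log2 change, Smyd3-ASO over control ASO, 1.60 ± 0.21 (SE), adjusted p = 0.00017).

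Of 19 measured clock genes, 3 rose, 6 fell and 10 missed the threshold. Cry1, a repressor of the clock, was at 31.3, 19.8, 21.7 and 20.8 CPM in P133 mice and 2.22 to 5.36 with a median of 2.68 CPM in Smyd3-ASO mice (log2 change -2.93 ± 0.26 (SE), adjusted p = 5.5e-05). Nr1d1, the repressor REV-ERB alpha, was at 1.05, 1.36, 1.11 and 1.89 CPM and 4.21 to 14.3 with a median of 12.1 CPM (log2 change 3.02 ± 0.37 (SE), adjusted p = 0.00038). Hlf, a clock-controlled transcription factor, went from 30.5 to 56 CPM to 17.1 to 28.1 CPM (log2 change -1.04 ± 0.18 (SE), adjusted p = 0.0023). None of these 3 overlapped between the groups. Usp2, a deubiquitinase under clock control, had a log2 change of -2.25 ± 0.54 (SE), adjusted p = 0.015, and Tsc22d3, a gene induced by glucocorticoids, fell from 156, 231, 167 and 83.4 CPM to 18.3 to 47.8 with a median of 25.7 CPM (log2 change -2.50 ± 0.30 (SE), adjusted p = 0.00038). Cry1 and Nr1d1 in control-ASO mice were at 1.76 to 6.57 and 7.98 to 35.4 CPM, and in untreated mice at 2.61 to 3.89 and 12.7 to 38.2 CPM. The 3 groups of day 260 were thus on the same side of the P133 mice for Cry1 and Nr1d1, but not for Usp2. Usp2 was at 21.9 to 31.2 CPM in P133 mice, 1.64 to 15.1 CPM in Smyd3-ASO mice and 1.2 to 14.2 CPM in control-ASO mice. In untreated mice it was at 8.15 to 51.3 CPM, and all of them but mouse 5 lay above every P133 mouse. The part of the hour of harvest in the metabolic and immediate early values above was not tested.

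Among the remaining large falls, Cabyr, a calcium-binding protein first described in sperm, was at 53.2, 56.9, 5.76 and 99.5 CPM in P133 and 0.42 to 5.13 with a median of 2 CPM in Smyd3-ASO mice (log2 change -4.62 ± 0.79 (SE), adjusted p = 0.0039), with P133 mouse 3 just above the highest Smyd3-ASO mouse. Nrep, a neuronal regeneration related protein, went from 33.8, 24.7, 16.2 and 69.7 CPM to 1.64 to 9.84 with a median of 3.52 CPM (log2 change -3.23 ± 0.54 (SE), adjusted p = 0.0029). Pllp, plasmolipin, went from 21, 25.4, 19.9 and 23.5 CPM to 1.78 to 8.71 with a median of 3.53 CPM (log2 change -2.38 ± 0.33 (SE), adjusted p = 0.00077). None of these 3 overlapped between the groups.

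Control-ASO mice of the same age were fitted against the same 4 P133 mice, and 2200 genes rose and 1931 fell (14.4% and 12.6%, and 27% in all). With library totals 3855 rose and 985 fell, so that 79.6% rather than 53.3% of calls were rises. The 2 comparisons share their P133 mice, so their values are set side by side without a test of likeness. For immediate early genes, 10 rose with the Smyd3 ASO and 13 with the control ASO. For hepatocyte transcription factors, 12 and 8 fell. For ribosomal proteins, 13 rose in each. For the male-biased list, 7 and 12 fell. For female-biased genes, 2 rose with the Smyd3 ASO and 13 with the control ASO. The log2 change of Egr1 over P133 was 5.13 with the Smyd3 ASO and 4.85 ± 0.52 (SE), adjusted p = 0.00022 with the control ASO. That of Cry1 was -2.93 with the Smyd3 ASO and -2.52 ± 0.28 (SE), adjusted p = 5.5e-05 with the control ASO. The direct comparison of the ASO groups gave 2028 genes higher and 1972 lower with the Smyd3 ASO (13.3% and 12.9%, and 26.1% in all). In it, no immediate early gene of 21 was higher and 2 were lower, 10 of 21 oncofetal genes were lower and 3 higher, and 13 of 32 ribosomal protein genes were higher. Afp had a log2 change of 7.10 ± 0.58 (SE), adjusted p = 4.6e-05 with the control ASO over P133, and the direct test of the difference is given above.

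**Figure D5:**
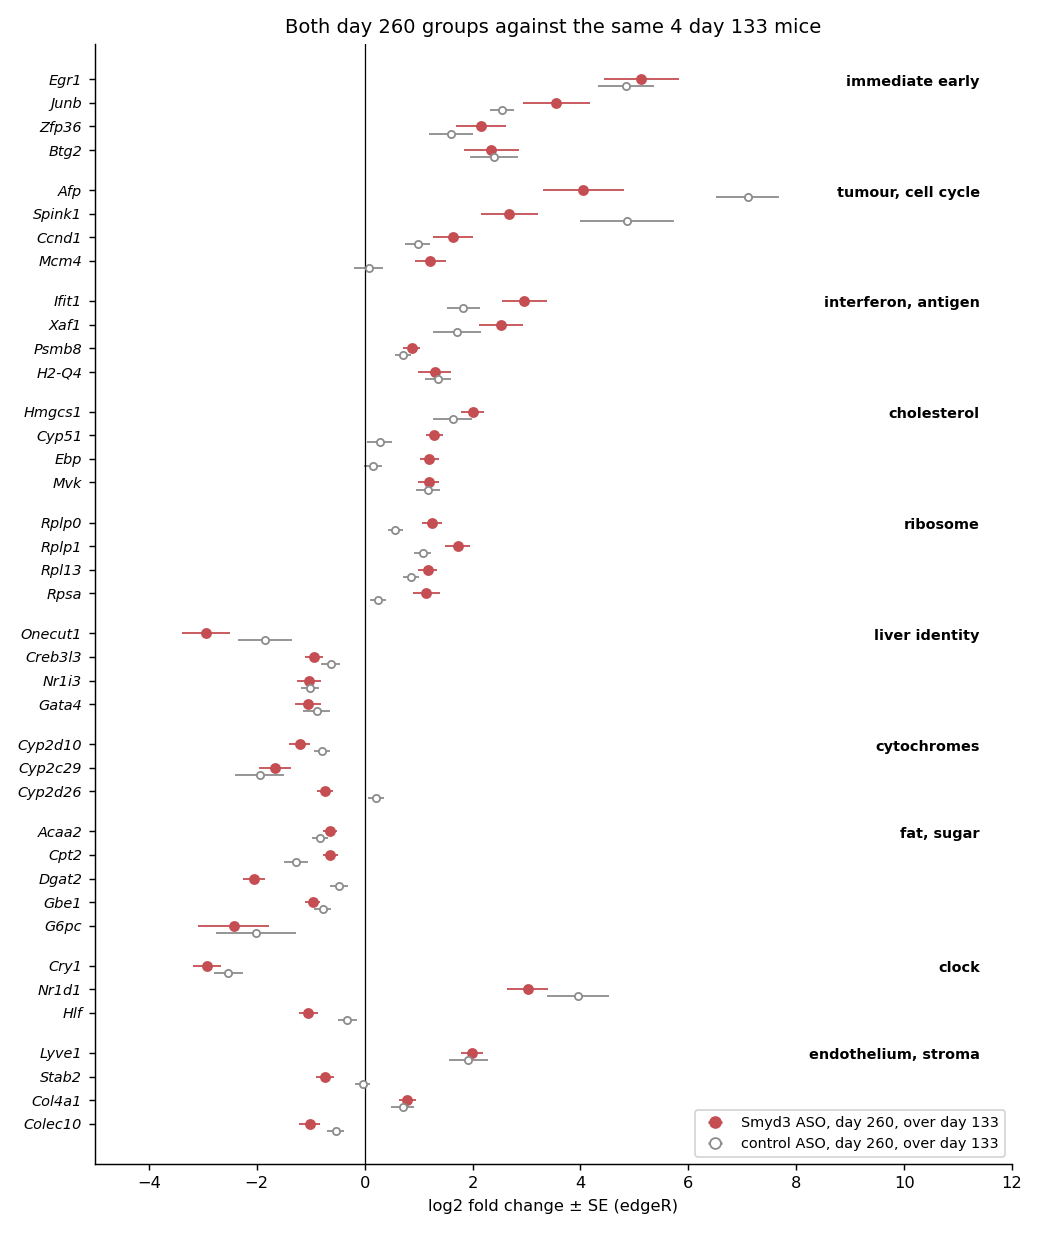
Log2 fold change ± SE over the same 4 day 133 mice for genes named in the text, with filled red points for Smyd3-ASO mice and open grey points for control-ASO mice. Egr1 and Cry1 lie close together in the 2 groups, whereas Afp, Mcm4, Cyp51, Dgat2 and Stab2 lie apart.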

How the data were processed

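The deposited table of raw counts per gene and mouse was used, with technical libraries merged by the authors per its header. Libraries were QuantSeq 3' mRNA-Seq FWD from liver pieces, sequenced on an Illumina NextSeq 500, per the labels' protocols; no molecular identifiers are named. HISAT2 2.1.0, mm10 and DESeq are listed in the submitters' processing notes, and the counter and annotation are not given in the sources used here. A second deposited table holds the authors' normalized values, treated as a score and used only as an alternative. Gene positions are GENCODE vM21 (mm10), promoters RefSeq on GRCm38.p6.

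Of 55413 genes, edgeR 4.0.16 (R 4.3.3) kept 15297 with its filter over the 4 groups. For each comparison the model held the mice of its 2 groups only, with TMM scaling, the robust quasi-likelihood test and Benjamini-Hochberg adjustment over all genes tested, at a threshold of 0.05. All adjusted p-values are from that test, and they measure the spread between mice, which the labels call biological replicates. SE is the log2 change divided by the root of its F statistic. CPM used TMM factors over all 21 mice. DESeq2 1.42.0, limma 3.58.1, other filters and scalings, thinned counts, a replicate block and leaving out mice were alternatives. The fit was tested on simulated counts.

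Gene names in the text follow this rule: 4 marker genes, the 12 largest rises and falls among genes whose mean log2 CPM reached 2 and whose groups did not overlap, the 4 members of each list with the smallest adjusted p, and the 6 most abundant called genes in each direction. Some genes that the rule names are not reported here. The members and the 46 gene lists were chosen with earlier results of these data known. List counts are read against the share of all genes, with no test of the list.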

Additional observations from a re-analysis of the deposited data

Results flagged for a closer look

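Each level of 155 genes in each of the 2 groups was checked for a mouse far from the rest of its group by Dixon's test, and 15 of 310 sets of values held one. Chance marks about 1 in 20 such sets. Values are CPM of the mouse, beside that of the nearest mouse of its group.

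Among Smyd3-ASO mice, mouse 6 was low for Bax at 1.64 CPM (nearest 12.0), for Junb at 10.5 CPM (nearest 61.5), for Bst2 at 36.3 CPM (nearest 260.5) and for Atf5 at 71.4 CPM (nearest 388). Mouse 1 was high for Rplp1 at 1154 CPM (nearest 698). Mouse 3 was low for the clock gene Nr1d1 at 4.21 CPM (nearest 11.2).

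Among P133 mice, mouse 1 was high for Junb at 9.25 CPM (nearest 5.54), for Mvk at 11.1 CPM (nearest 7.29) and for Lyve1 at 4.41 CPM (nearest 3.10), and low for Ifi44 at 0.631 CPM (nearest 2.05). Mouse 3 was high for Cpt2 at 98.4 CPM (nearest 72.3) and for Vsig4 at 123 CPM (nearest 60.3), and low for Trim12c at 1.77 CPM (nearest 2.88). It also held the single Gpnmb count of the group, 0.222 CPM, where the others were at 0. Mouse 4 was low for Clec4f at 17.7 CPM (nearest 25.4). These mice stayed in the groups.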

How the results depend on the processing

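Scaling by library totals in place of TMM gave 3369 genes higher and 736 lower for Smyd3-ASO over P133 (2011 and 1783 with TMM), 3855 and 985 for control ASO over P133 (2200 and 1931), and 217 and 66 for members of the gene lists (138 and 131). Limma voom gave 1292 higher for Smyd3-ASO over P133 and 87 list members higher. Smyd3-ASO mouse 6 taken alone, a setting chosen after seeing the data, gave 451 higher and 550 lower and 83 list members higher, and turned the sign of Bst2 (-0.75), Tap2 (-0.13) and Atf5 (-0.12). In that setting 1 mouse is assumed to vary like the P133 mice. Leaving out 1 mouse gave 1300 to 2252 higher and 1199 to 2030 lower for Smyd3-ASO over P133. For Smyd3 the difference in mean log2 level was -2.56 and ran from -2.43 to -2.74 when 1 mouse was left out (exact permutation p up to 0.012), with -3.94 in the authors' normalized table and -3.64 with a pseudocount of 0.1. The replicate numbers did not pair the mice: the deviations of same-numbered mice correlated at -0.03, 0.06, -0.05 and 0.01 over genes. With the replicate number as a block, 1979 genes were higher and 1888 lower for Smyd3-ASO over P133, and 1396 and 1134 for control ASO over P133. All other counts over all genes, or over the list members together, were within 1.5 times of those reported, while counts of single lists moved further, as given beside those lists. Of 155 named genes, the call was lost by 25 with library totals, 20 with voom, 19 without a filter, 16 with the block, 12 without Smyd3-ASO mice 3 and 4 and 75 in mouse 6 alone, and by 18 to 25 when 1 P133 mouse was left out and 2 to 12 when 1 Smyd3-ASO mouse was. The cause of these shifts was not tested. Genes with few counts, such as Gpnmb, Ccnb1 and Cd79b, are limited by the depth of the P133 mice.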

Other observations

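Several gene groups outside the comparisons above also held genes that passed between the Smyd3-ASO and the P133 mice. Their counts are to be read against the shares of all genes, 13.1% higher and 11.7% lower. Among 17 ageing-linked liver genes, 5 rose and 1 fell. Lpl, lipoprotein lipase, which is low in normal adult hepatocytes, was at 49, 38.3, 43.4 and 48.6 CPM in P133 mice 1 to 4 and 114 to 229.7 with a median of 171 CPM in Smyd3-ASO mice, without overlap (log2 change 1.93 ± 0.21 (SE), adjusted p = 0.00016 in edgeR's quasi-likelihood test). The member that fell, Cd209f, a lectin of macrophages named after its values were seen, had 30 counts over the 4 P133 mice and 2 over the 6 Smyd3-ASO mice, a depth-scaled ratio of 0.0133 (exact Poisson 95% interval 0.00154 to 0.0526, for counting error only). Among 23 genes of periportal hepatocytes, 6 fell and 3 rose, and the falls were 1 without P133 mouse 1, 2 without P133 mouse 2 and 3 without Smyd3-ASO mouse 1. The rises were at most 1 without any single P133 mouse, and with library totals 3 fell and 3 rose. Etnppl, a phospholyase of ethanolamine phosphate, was at 91, 102, 100.4 and 82.2 CPM in P133 and 34.7 to 47.2 with a median of 41 CPM in Smyd3-ASO mice, without overlap (log2 change -1.23 ± 0.13 (SE), adjusted p = 0.00018). Among 24 pericentral genes, 4 fell and 1 rose, and 2 fell without P133 mouse 2 or 4, as with library totals. There 2 rose, as without P133 mouse 3 or Smyd3-ASO mouse 4. Cyp1a2, a cytochrome that activates aromatic amines, went from 522, 1126, 547 and 608 CPM to 135 to 381 with a median of 336 CPM, without overlap (log2 change -1.27 ± 0.31 (SE), adjusted p = 0.011).

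Of 35 nuclear-coded subunits of oxidative phosphorylation in the list, which leaves out others such as the Cox7c that rose above, 5 fell and none rose (3 fell without P133 mouse 3 or 4, 1 rose without P133 mouse 2, and 2 rose without Smyd3-ASO mouse 6), with a median log2 change of -0.17 that became 0.14 with library totals, where 2 fell and 5 rose. Cyc1, cytochrome c1, was at 126, 139.6, 136 and 141 CPM in P133 and 77 to 94.3 with a median of 81.6 CPM in Smyd3-ASO mice, without overlap (log2 change -0.72 ± 0.12 (SE), adjusted p = 0.0015, and -0.43 with library totals). Ndufs1, a subunit of complex I, went from 57.4 to 69.6 CPM to 32.9 to 44.8 CPM (log2 change -0.72 ± 0.13 (SE), adjusted p = 0.0032, and -0.43 with library totals, where it did not pass). In the list of endoplasmic reticulum stress, 5 of 26 fell and 2 rose. Without any 1 P133 mouse, or Smyd3-ASO mouse 1 or 2, the falls were 2 or 3, and without Smyd3-ASO mouse 5 they were 8. The rises were 4 without Smyd3-ASO mouse 2 and 5 without mouse 6. With library totals 3 fell and 7 rose. Sel1l, which serves the breakdown of misfolded proteins, went from 139 to 263 CPM to 73.9 to 126 CPM (log2 change -0.97 ± 0.20 (SE), adjusted p = 0.005). Atf5, a stress-induced transcription factor, was at 75, 97.8, 83.7 and 54.1 CPM in P133 mice and 71.4 to 949 with a median of 419.7 CPM in Smyd3-ASO mice, with mouse 6 at 71.4 CPM inside the P133 range (log2 change 2.52 ± 0.56 (SE), adjusted p = 0.0096). In the list of iron handling, 4 of 20 rose and 3 fell, and 1 rose without any 1 P133 mouse, while with library totals 4 rose and 1 fell. Slc40a1, the iron exporter ferroportin, went from 116, 119, 84.8 and 137 CPM to 28.4 to 86.1 with a median of 47.1 CPM, with an overlap (log2 change -1.15 ± 0.25 (SE), adjusted p = 0.0062). Fth1, the heavy chain of ferritin, had a log2 change of -0.76 ± 0.19 (SE), adjusted p = 0.014, and -0.46 with library totals, where it did not pass. Among 27 targets of NRF2, 4 rose and 1 fell, 14.8% and 3.7%, the first near the share of all genes. Of these targets, 1 rose without P133 mouse 1 or 3, and 2 without P133 mouse 2 or 4 or Smyd3-ASO mouse 1. Their falls were 4 without Smyd3-ASO mouse 6, where 3 rose, and none fell with library totals or without P133 mouse 1, 2 or 4 or Smyd3-ASO mouse 1, 2, 3 or 4. Of 8 measured lymphocyte markers 1 rose, 12.5% against 13.1% of all genes. It was the B cell gene Cd79b, named after its values were seen, with 1 count over the P133 mice and 109 over the Smyd3-ASO mice (depth-scaled ratio 21.8, exact Poisson 95% interval 3.83 to 869, for counting error only).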
